A study of Bos taurus with 16 samples.

Results

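The genes described here were those of the WNT, BMP, TGFB, FGF and NOTCH families, taken from a reduced representation bisulfite sequencing (RRBS) table of bovine endometrial cells. They were chosen by name: every autosomal cytosine position whose gene symbol began with WNT, FZD, BMP, SMAD, FGF, FGFR, TGFB, LTBP, NOTCH or DVL and a digit, or with TGFBR or BMPR, was taken, whatever its methylation level. This gave 1133 of the 199395 positions in the table, in 77 of 10781 named genes. Of the 77 genes, 68 had at least 2 sites and were averaged per library (1124 sites), and 9 had 1 site. The prefixes also caught genes that are not ligands, receptors or transducers of these families. Of these, 6 were kept apart (BMP1, BMP2K, TGFB1I1, FGFR1OP, FGFR1OP2 and TGFBRAP1). The other genes were given a role by name alone, and 21 sites on chromosome X were left out.

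The study asked whether endometrial DNA methylation around breeding differed by later pregnancy outcome and by diet. All cows were postpartum dairy cows inseminated between days 50 and 64 after calving, and endometrial cells were brushed from the uterus 4 to 8 h after insemination. From day 12 after calving, cows were given either a control diet (CON) or that diet with daily rumen-protected methionine (RPM, groups MET), an amino acid in a form that passes the rumen. By outcome the libraries fell into CON_P and MET_P (pregnancy) and CON_noP and MET_noP (no pregnancy), with 4 libraries in each group and 16 in all. Sampling preceded the outcome, so P and noP name what followed and not a state of pregnancy at sampling. The paper reports DNA isolation from more brush samples than there are libraries, with more samples in the noP than in the P groups. The number of cows behind a library is not stated, so pools of cows, larger in the noP groups, are possible. The spread between libraries may therefore differ in kind between P and noP, and every p-value below measures the spread between libraries only. A brush takes a mixture of cells, and in such bulk DNA a change in methylation within a cell type and a change in the proportion of cell types cannot be told apart.

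WNT proteins are secreted ligands that bind frizzled (FZD) receptors and act through dishevelled (DVL) proteins, in one branch by stabilising beta-catenin. BMP and TGFB ligands bind serine/threonine kinase receptors (BMPR, TGFBR) that phosphorylate SMAD proteins, while latent TGFB binding proteins (LTBP) hold TGFB in the extracellular matrix. FGFs bind receptor tyrosine kinases (FGFR), and NOTCH receptors are cleaved after contact with ligands on neighbouring cells. In the uterus these pathways are known for gland formation, for the dialogue of epithelium and stroma, and for preparation of the lining for implantation.

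The measurement was the methylation level of a site, the percentage of reads called methylated there. The table held no read counts, so the depth behind each value is unknown and no interval can be set on a single percentage. By group, the paper reports the most raw reads and CpG calls per library for MET_P and the fewest for CON_P. Positions without a value or with a value of zero had been discarded before deposition, so a low level here is the level of a site that was above 0 in every library. Averaged over all sites of the table, the CON_P libraries were at 63.4% ± 1.5 and the CON_noP libraries at 62.5% ± 0.967, and with RPM the values were 63.9% ± 0.548 (MET_P) and 63.8% ± 0.968 (MET_noP, SD between 4 libraries). No 2 libraries were copies of each other, as 3.04% to 10.4% of values were equal between any 2 of them. Of the marker genes listed for endometrial epithelium, 3 of 7 had at least 2 sites (KRT19 35.1%, CDH1 7.14% and MUC1 30.3%), which describes methylation and not expression and so cannot show which cells were brushed.

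Sites in these signalling genes spread over the whole range of methylation, with fewer near complete methylation than elsewhere. Their mean was 57.8% and their median 61.5%, against 64.6% and 80% over all autosomal sites and 67.6% and 85.2% over autosomal sites of the other named genes. Of the member sites, 227 (20%) lay under 20%, 456 (40.2%) lay over 80% and 39.7% lay between. Over all autosomal sites the corresponding shares were 17.4%, 50.0% and 32.6%. At the gene level the median of the 68 genes was 51.7%, with 15 genes under 20% and 15 genes over 80% (22.1% each), while over all 8719 genes with at least 2 sites the median was 69.0%, with 16.6% under 20% and 36.6% over 80%. These are descriptions of fixed gene sets and were not tested. The spread between libraries of a group was about that of other genes. The median SD, pooled within groups, was 3.02 percentage points for members and 2.95 for all genes.

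The frizzled receptors were the least methylated group of receptors. Their 8 genes had a median of 25%, 4 of them lay under 20%, and the highest was FZD9 at 50.3%. FZD3 (7.46%), FZD5 (7.61%) and FZD6 (7.69%) each rested on 2 sites. FZD8 had 49 sites with a mean of 18.1% and no site above 40.2%, so its low level did not rest on a few positions. FZD10 (31.9%, 30 sites), FZD1 (40.8%) and FZD2 (48.1%) were intermediate, and only 3.33% of all FZD sites were over 80%. Downstream of them, the dishevelled genes were highly methylated at their measured sites (DVL1 87.4%, 17 sites, and DVL2 88.2%, 11 sites).

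WNT ligands covered almost the whole scale, from WNT1 at 6.5% to WNT4 at 92.2%, with a median of 56.5% over 16 genes. WNT1 (chr5:30834541-30834585, 3 sites), WNT16 (8.06%), WNT2 (10.7%) and WNT5B (19.5%) lay under 20%. WNT4, WNT11 (87.5%) and WNT9A (85.4%) lay over 80%. Between these, WNT7A, a ligand known from uterine epithelium and gland formation, had a mean of 55.0% over 95 sites, and WNT7B had 58.1% over 60 sites.

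In the BMP and TGFB branches, genes of 1 role differed widely in level. Among the ligands with at least 2 sites, BMP8A was at 49.2%, BMP7 at 51.4%, BMP6 at 66.7%, BMP5 at 89.9%, TGFB2 at 58.0% and TGFB3 at 85.3%. TGFBR1, the type I TGFB receptor, had 9.02% over 4 sites, while TGFBR2, the type II receptor with which it pairs, had 87.3% over 18 sites and the co-receptor TGFBR3 had 93.3% over 5 sites. The BMP type I receptors BMPR1A (44.8%, 8 sites) and BMPR1B (39.1%, 2 sites) were intermediate at all of their 10 sites. Of the SMADs, SMAD5, which transduces BMP signals, was low (8.65%), the inhibitory SMAD7 and SMAD6 were at 35.2% and 38.9%, SMAD9 and SMAD1 were at 50.2% and 50.7%, and SMAD3, which transduces TGFB signals, was highest at 66.8%. LTBP4 (8.47%), LTBP2 (49.2%), LTBP3 (60.3%) and LTBP1 (79.9%) were spread just as widely.

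Of the FGF genes, grouped as ligands by name alone, FGF20 (8.29%), FGF4 (15.9%) and FGF19 (18.4%) were low. FGF3, FGF5, FGF18 and FGF2 lay between 25.9% and 66.5%, and FGF12 was at 82.2%. The FGF receptors were higher, with a median of 73.0%, and FGFR3 (90.8%, 37 sites, 33 of them over 80%) had an SD between libraries of only 0.741 percentage points. FGFR4 at 52.0% was the mean of 1 site at 7.22% and 1 at 96.8%, so no site was near its gene mean. The NOTCH receptors ranged from NOTCH3 (43.3%, 33 sites) over NOTCH4 (69.9%) and NOTCH1 (74.7%, 104 sites) to NOTCH2 (94.9%, 12 sites). The highest gene mean of all was that of TGFBRAP1 (96.8%, 5 sites), a vesicle-tethering factor caught by its name. The 9 genes with 1 site were all under 20%, from DVL3 at 6.80% over FGF23 (6.89%), FZD7 (6.92%), BMP2 (7.94%), FGFR1OP2 (8.98%), FZD4 (10.2%), BMP4 (11.7%) and BMP3 (14.8%) to WNT8B at 17.8%, and they entered no gene test.

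**Figure D1:**
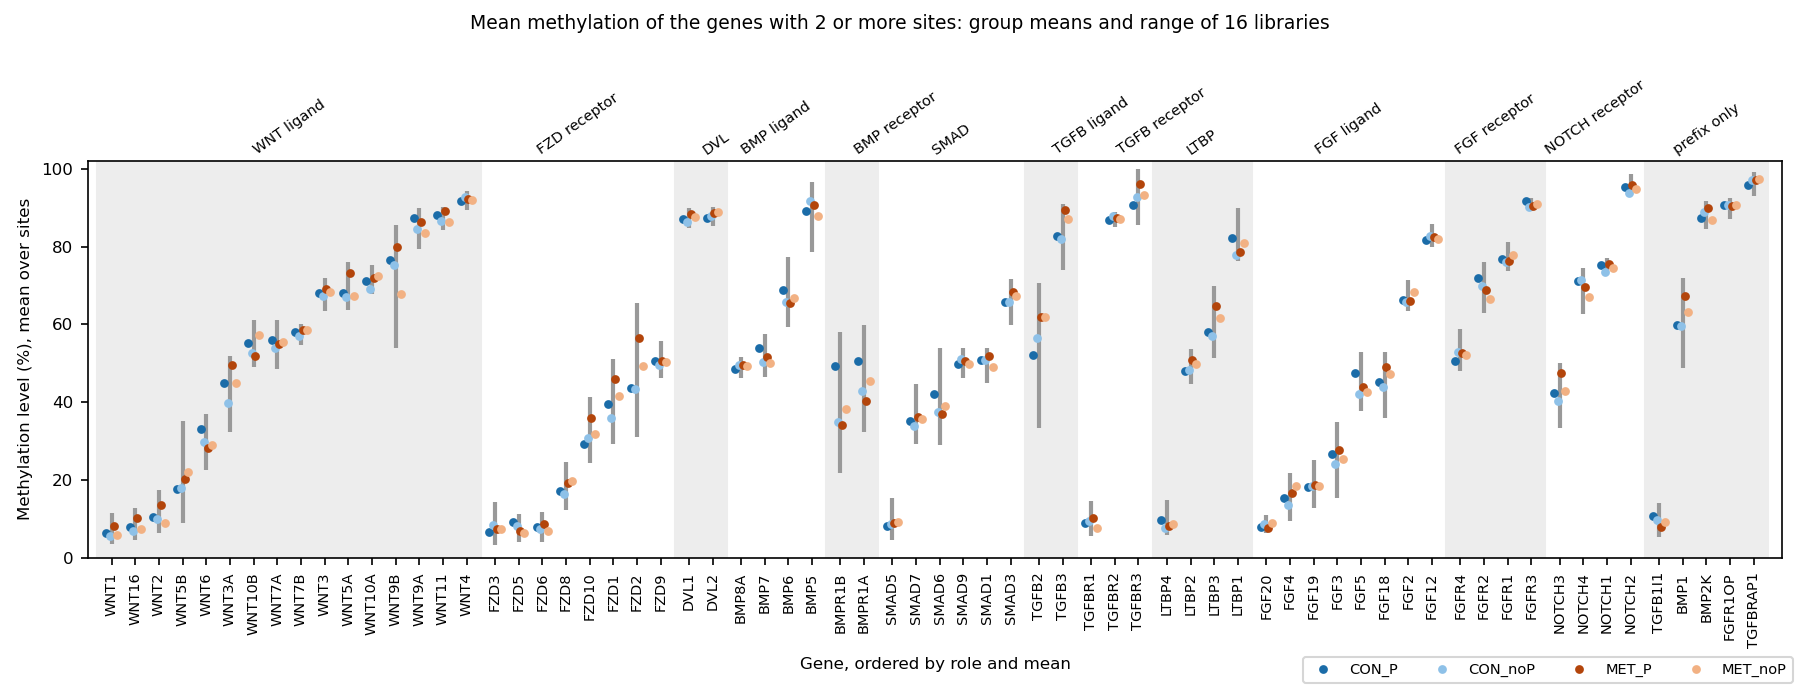
Methylation level (%, y axis) of each of the 68 genes with at least 2 sites (x axis, by role and mean). Points are the 4 group means and grey lines the range of the 16 libraries. Averaged over all libraries, FZD genes lie at or below 50.3%, while WNT ligands run from 6.5% to 92.2%.

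Within a gene, methylation changed over short distances. Sites no more than 200 bp from the next were joined into clusters, and those with at least 5 sites gave 81 clusters (688 sites, 40 genes), of which 9 had a mean under 20%, 37 over 80% and 35 between. Coordinates are those of the ARS-UCD1.2 assembly as deposited, and whether a cluster lies in a promoter, exon or intron was not analysed here.

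NOTCH1 showed the sharpest contrast among the genes with most sites. Its first 6 clusters, from chr11:103935677 to chr11:103950057, had means between 93.9% and 97% with SDs between libraries of 0.933 to 1.93 percentage points. Further along, chr11:103959532-103959756 was at 50.2% and chr11:103960136-103960196 at 69.3%, and chr11:103963539-103963586 was at 16.6% with libraries from 4.9% to 38.9%. In SMAD6, all clusters but the last were at 17.9% to 37.6%, and the last, chr10:13620756-13620805, was at 81.1% although the cluster before it, of 16 sites (chr10:13620203-13620307), was at 35.8%. BMP6 had clusters at 90.1% (chr23:47511664-47511729) and 94.1% (chr23:47516188-47516237) and 1 at 29.8% (chr23:47582815-47582866).

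WNT7A went from 69.7% to 63.3%, 66.6% and 51.4% (chr22:58172628-58172721) over successive clusters, reached 31.4% and 23.5% (chr22:58176389-58176573), and was at 67.7%, 56.5% and 90.6% (chr22:58206934-58206970) beyond. A gene mean near 50% could therefore come from a mixture of low and high sites or from sites that were each intermediate. BMP8A was of the first kind, with 9 sites under 20% and 9 over 80%, as was SMAD1 with 4 of each. FZD2 (10 sites within 101 bp), WNT3A (19 sites within 130 bp, 44.8%) and BMPR1A (8 sites within 125 bp) were of the second.

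**Figure D2:**
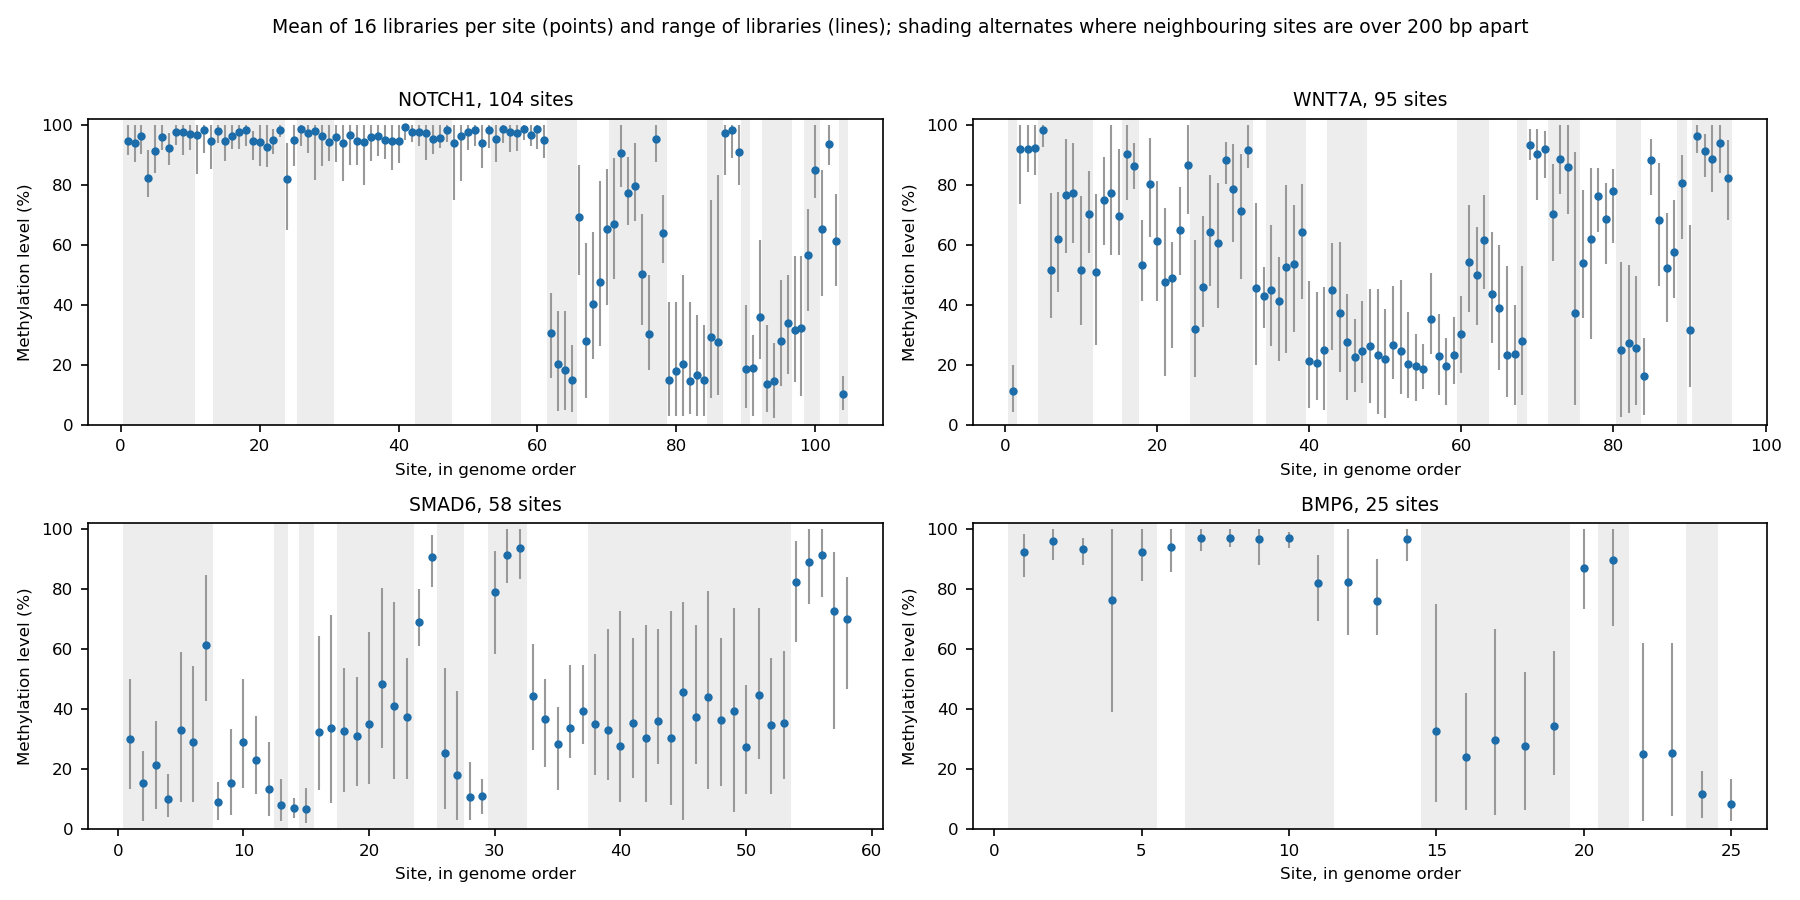
Methylation level (%, y axis) of every site of NOTCH1, WNT7A, SMAD6 and BMP6, numbered in genome order (x axis). Points are means of the 16 libraries, lines their range, and shading alternates at gaps over 200 bp; the means of the NOTCH1 sites on the left are above 80% with short lines, and low and intermediate sites have longer ones.

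The 4 groups were compared pairwise at the gene level with limma on M values, log2 ratios of the methylated to the unmethylated share, each raised by 1 percentage point, with Benjamini-Hochberg adjustment over all 8719 genes. No member gene, and none of the 8719 genes, had an adjusted p under 0.05 in any of the 7 comparisons (4 pairwise, outcome over both diets, diet over both outcomes, and their interaction). The genes below are therefore those with the smallest unadjusted p or with groups that did not overlap, and none of them is a called difference. For single genes a two-sided exact permutation test over libraries is added, which cannot go below 0.0286 with 4 against 4. The sites of a gene come from the same libraries and often lie close together. Counts of sites with a higher or lower mean therefore describe a gene and are not independent results. The comparisons share groups (CON_P, for example, is in the outcome and the diet comparison), so the same libraries can give a low p in more than 1 of them.

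Most member genes had a slightly higher mean in the P or MET group, 44 to 47 of 68 in each pairwise comparison, beside 55.7% to 63.1% of all genes. The balance moved with the scaling in the comparisons with CON_noP, for all genes as for members, and less in the others. When the median M value was made equal in every library, 33 of 68 members were higher in CON_P than CON_noP (45.4% of all genes), 31 in MET_noP than CON_noP (45.9%), 45 in MET_P than MET_noP (54.4%) and 45 in MET_P than CON_P (54.4%), so no direction of the members is read from these counts. The centring moved the median M difference over all genes by less than 0.1.

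In cows given the control diet, BMPR1B had the largest difference between outcomes. It alone, 1 of 68 genes, had an unadjusted limma p under 0.05, against 3.5% of all genes, and no member had groups that did not overlap (1.95% of all genes). BMPR1B, a BMP type I receptor whose loss or mutation is known to affect ovulation and uterine gland formation in mammals, was measured at 2 sites (chr6:29483826-29483865). Its level was 54.8%, 57.9%, 45.4% and 38.9% in the CON_P libraries and 44.1%, 35.3%, 38.2% and 21.7% in the CON_noP libraries. The mean was 49.3% ± 8.72 against 34.8% ± 9.50, a difference of 14.4 percentage points (M difference 0.87, SE 0.36), but the ranges overlapped and the limma adjusted p was 1 (exact permutation p = 0.0571).

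BMPR1A, the other BMP type I receptor, was likewise at 50.5% ± 9.44 in CON_P and 42.9% ± 2.42 in CON_noP, with a limma adjusted p of 1. Of the 16 WNT ligands, 14 had a higher mean in CON_P, by a median of 1.18 percentage points over the 16 genes, and none had a p under 0.05; after the same centring 11 were higher.

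In cows given RPM, 6 of 68 members differed between MET_P and MET_noP at an unadjusted p under 0.05, against 5.59% of all genes. Of the 6, 5 were WNT ligands, out of 16 WNT ligands tested, against 0 of 16 between CON_P and CON_noP (3.5% of all genes). For the interaction of diet and outcome, only 1 of the 16 had such a p, against 5.4% of all genes. WNT11, WNT16, WNT9B, WNT5A and BMP2K were higher in MET_P and WNT10B was lower. For 3 members the groups did not overlap (3.44% of all genes), namely WNT11, WNT16 and NOTCH3.

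WNT11, a ligand known mainly for beta-catenin-independent signalling, was at 90.1%, 89.6%, 88.8% and 88.0% in MET_P and at 87.7%, 85.1%, 86.1% and 85.9% in MET_noP (89.1% ± 0.945 against 86.2% ± 1.11, M difference 0.36, SE 0.12, limma adjusted p = 0.81, exact permutation p = 0.0286). Every MET_P library was above every MET_noP library, but 1 low site carried much of the difference. At that site, chr15:55624797, the means were 27.3% and 13.4%, and without it the gene difference was 1.51 percentage points in place of 2.89. WNT16, another WNT ligand, was low throughout, at 12.7%, 8.70%, 8.78% and 10.6% in MET_P and 7.29%, 6.05%, 7.85% and 7.81% in MET_noP over 3 sites (10.2% ± 1.88 against 7.25% ± 0.839, limma adjusted p = 0.816). Its groups were separate too, with the nearest libraries at 8.70% and 7.85%.

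WNT5A, a ligand that is needed for uterine gland formation in mice, had a higher mean in MET_P at all of its 11 sites. Gene values were 76.1%, 74.3%, 71.9% and 70.4% in MET_P and 72.0%, 65.3%, 63.6% and 68.6% in MET_noP, a difference of 5.79 percentage points with overlapping ranges (limma adjusted p = 0.882, exact permutation p = 0.0857). The difference was present both in its intermediate stretch of 3 sites at chr22:45553444-45553483 (43.7% ± 8.19 against 36.8% ± 10.9) and in its methylated stretch of 7 sites at chr22:45556951-45557018 (95.1% against 89.3%).

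WNT9B, which acts in the development of the reproductive tract and kidney, had the largest difference among members in this comparison, 12.1 percentage points (79.8% ± 5.30 against 67.7% ± 10.1, limma adjusted p = 0.882). Its 8-site stretch at chr19:45337509-45337559 was at 88.8% ± 6.33 in MET_P and 72.6% ± 12.8 in MET_noP. The MET_noP libraries were spread from 54.0% to 76.8%, and 1 library, S25, was the lowest of all 16. WNT10B ran the other way, at 51.8% ± 2.45 in MET_P and 57.3% ± 3.30 in MET_noP, and was lower in MET_P at 11 of 13 sites.

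NOTCH3, a receptor known from vascular smooth muscle and pericytes, was at 50.0%, 47.6%, 45.9% and 47.0% in MET_P and at 45.3%, 45.0%, 39.8% and 41.4% in MET_noP. The nearest libraries of the 2 groups were at 45.9% and 45.3%, and 26 of 33 sites had a higher mean in MET_P (difference 4.78 percentage points, M difference 0.27, SE 0.12, limma adjusted p = 0.882). For BMP2K, a kinase induced by BMP2 and not part of the receptor cascade, the gene difference of 3.04 percentage points came from 1 site. At chr6:93646671 the MET_P libraries were at 71.4%, 100%, 86.4% and 100% and the MET_noP libraries at 30.3%, 55.6%, 78.3% and 38.9%, and the gene difference without that site was -0.198 percentage points.

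**Figure D3:**
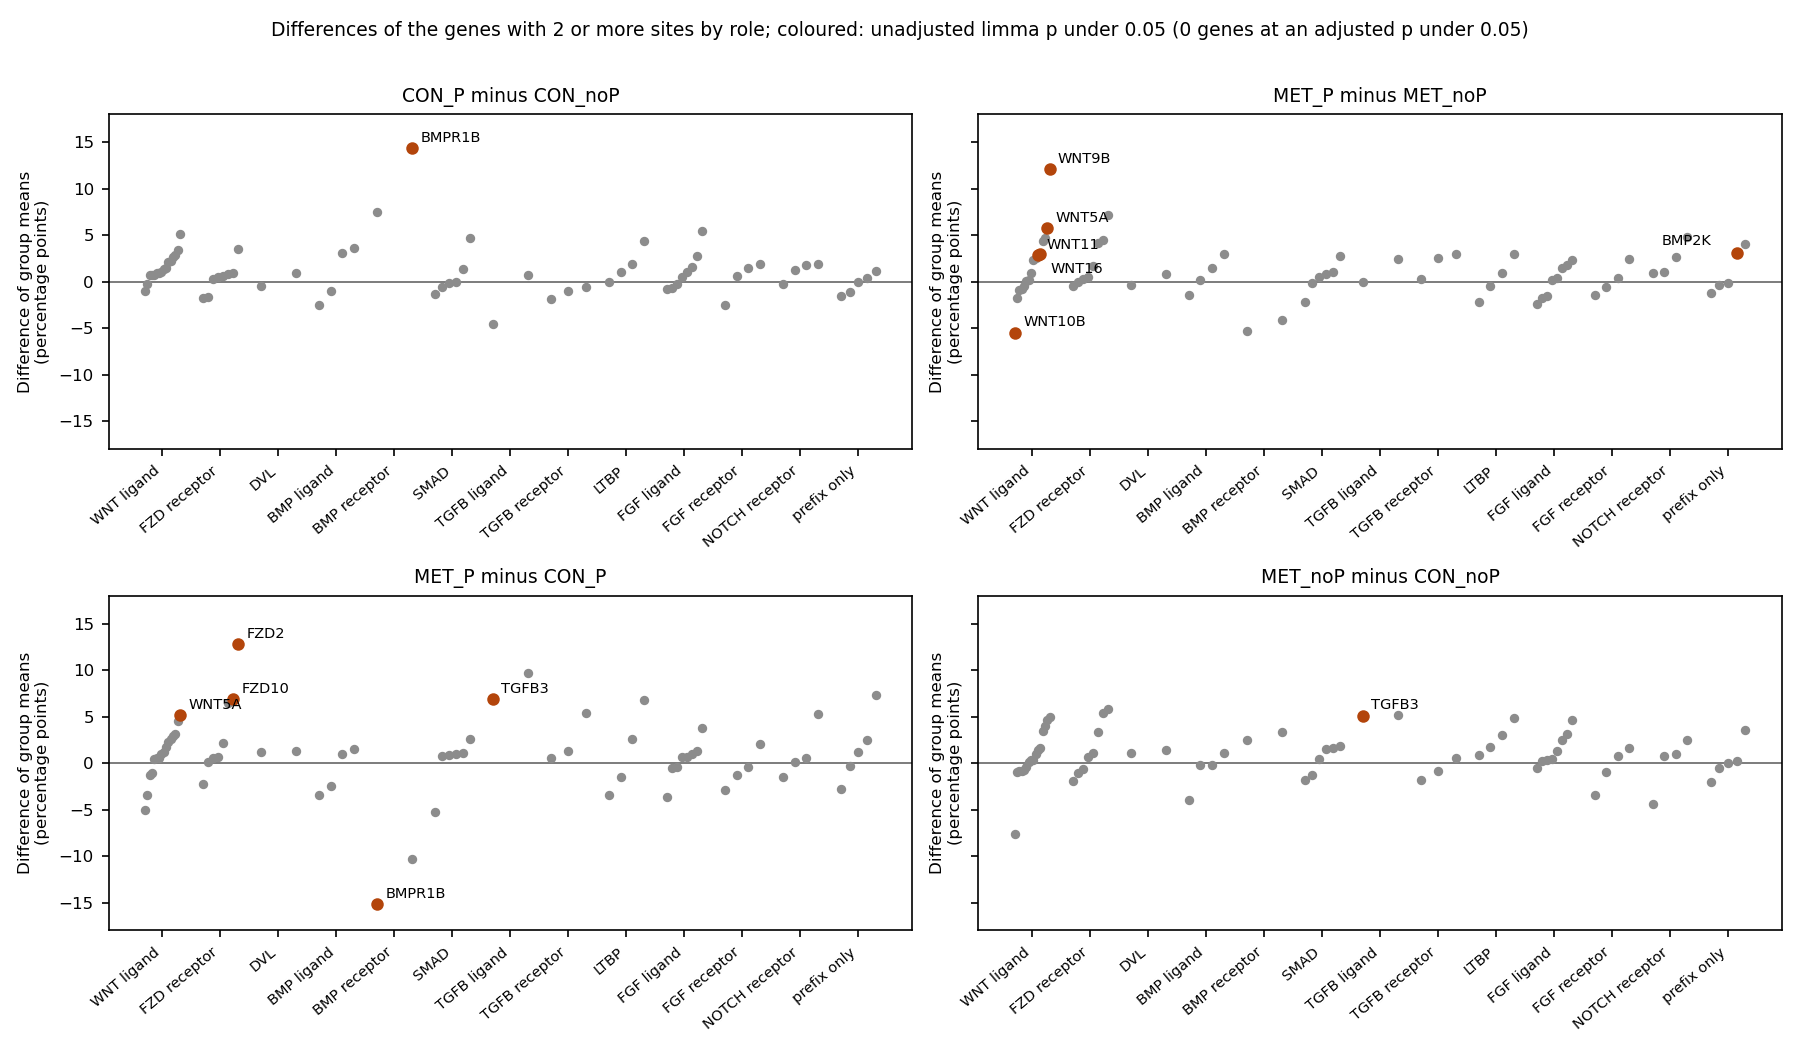
Difference of group means (percentage points, y axis) of each of the 68 genes by role (x axis), 1 panel per pairwise comparison. Coloured points have an unadjusted limma p under 0.05. They include 5 of 16 WNT ligands in the MET_P minus MET_noP panel (5.59% of all genes), of which WNT10B is lower in MET_P. In the CON_P minus CON_noP panel they include 0 of 16 (3.5% of all genes). None of the points passed adjustment over all genes.

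Between diets in cows with pregnancy, 5 of 68 members had an unadjusted p under 0.05, against 7.26% of all genes. FZD2, FZD10, WNT5A and TGFB3 were higher in MET_P than in CON_P and BMPR1B was lower. WNT5A alone had groups that did not overlap (3.81% of all genes).

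FZD2, a receptor of WNT5A, had the largest positive difference among the receptors. Its 10 sites lie within chr19:44330069-44330169, and the gene level was 58.3%, 64.9%, 52.6% and 49.7% in MET_P and 35.8%, 48.8%, 38.7% and 51.0% in CON_P. All 10 sites had the higher mean in MET_P, by 5.13 to 18.9 percentage points, but 1 CON_P library lay above the lowest MET_P library (56.4% ± 6.72 against 43.6% ± 7.46, M difference 0.74, SE 0.27, limma adjusted p = 0.68, exact permutation p = 0.0571). FZD10 was at 38.8%, 41.2%, 29.5% and 34.5% in MET_P, while the CON_P libraries were within 28.3% to 30.1% (difference 6.89 percentage points, 26 of 30 sites higher, limma adjusted p = 0.68). The MET_P values of FZD10 were far more spread than those of CON_P, with SDs of 5.15 and 0.765.

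WNT5A was above 70% in all 4 MET_P libraries and at 65.9%, 69.3%, 66.8% and 69.9% in CON_P (73.2% ± 2.50 against 68% ± 1.91, M difference 0.35, SE 0.14, limma adjusted p = 0.68, exact permutation p = 0.0286). BMPR1B was at 44.7%, 26.7%, 23.1% and 41.8% in MET_P, 15.2 percentage points below CON_P on average, with both of its sites lower (exact permutation p = 0.114).

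TGFB3, a TGFB ligand, was at 89.8%, 90.5%, 86.9% and 90.9% in MET_P and at 73.9%, 88.6%, 80.6% and 87.4% in CON_P. Its difference of 6.89 percentage points (exact permutation p = 0.0857) lay in 3 sites at chr10:87260714-87260744. There the MET_P libraries were between 92.3% and 96.2%, while CON_P libraries were at 50.0%, 90.7%, 62.0% and 92.0%, so that 2 of 4 CON_P libraries were within 2 percentage points of the lowest MET_P library.

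Between diets in cows without pregnancy, 1 of 68 members had an unadjusted p under 0.05, against 6.39% of all genes, and 1 had groups that did not overlap (3.75% of all genes). The first was TGFB3, at 84.5%, 87.3%, 89.6% and 86.8% in MET_noP and 86.7%, 82.1%, 80.6% and 78.3% in CON_noP (87.1% ± 2.12 against 81.9% ± 3.52, limma adjusted p = 0.748, exact permutation p = 0.0571). The same 3 sites were at 88.6% ± 4.03 and 72.9% ± 8.37. Taken as the median of its sites, where these 3 weigh less, TGFB3 had the opposite sign (M difference -0.25). The second was WNT10A, at 72.5% ± 1.41 in MET_noP and 69.1% ± 1.42 in CON_noP, with a higher mean in MET_noP at 21 of 24 sites (limma adjusted p = 0.798, exact permutation p = 0.0286).

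**Figure D4:**
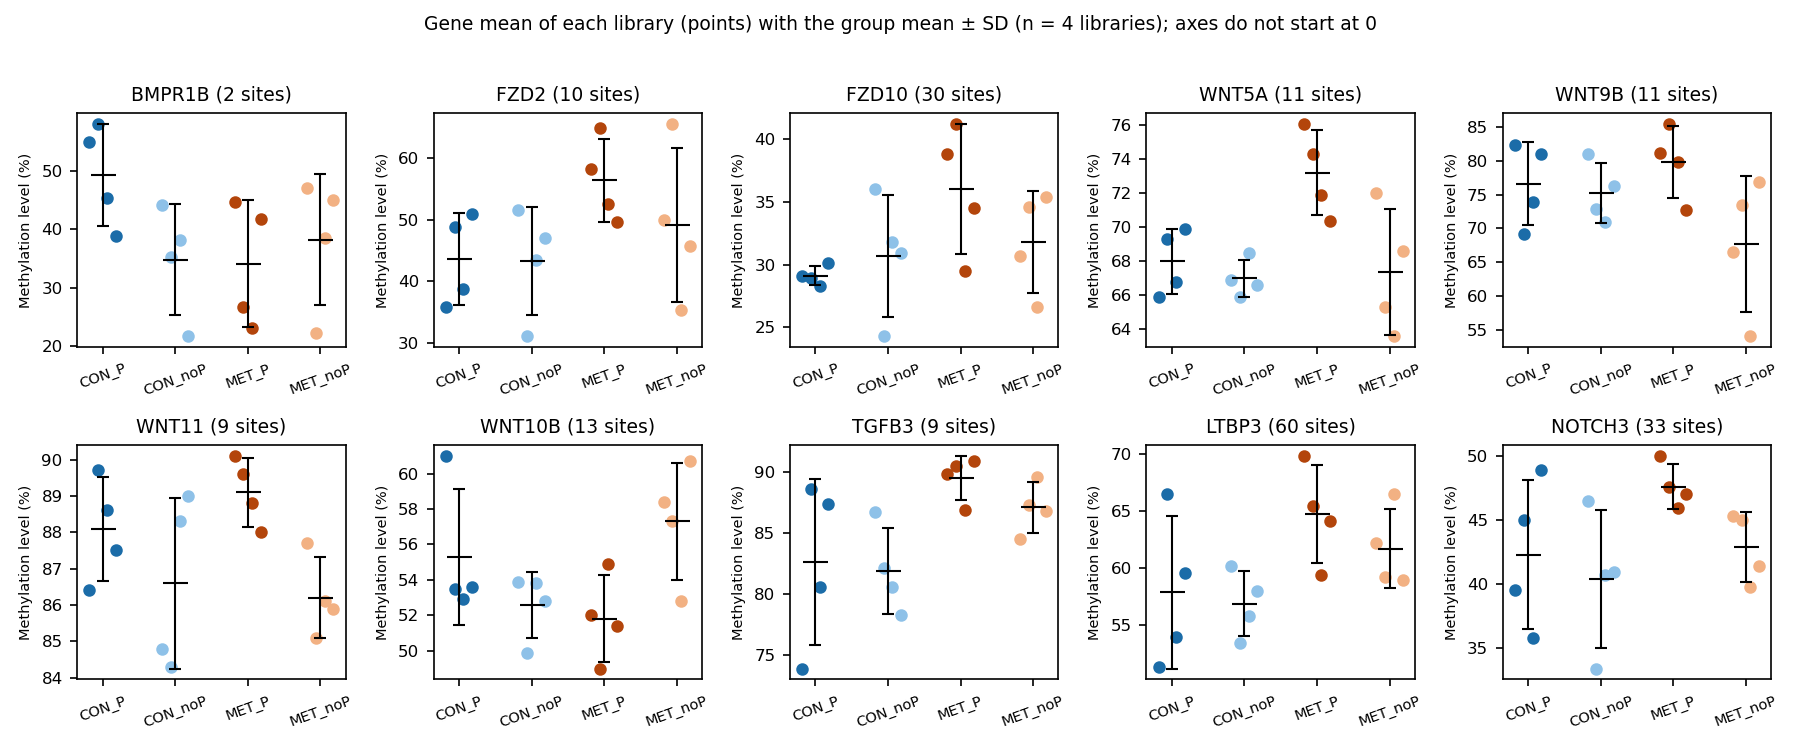
Gene mean of methylation (%, y axis, not starting at 0) in each library of the 4 groups (x axis) for 10 genes. Points are libraries and bars the mean ± SD (n = 4); MET_P libraries of WNT5A lie above all CON_P libraries, those of WNT11 and NOTCH3 above all MET_noP libraries, and most other pairs of groups overlap.

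Over both diets, 3 of 68 members had an unadjusted p under 0.05 for outcome, against 3.35% of all genes. All 3 were among the 16 WNT ligands and had higher means in P, while under the control diet alone 0 of 16 had such a p (3.5% of all genes). WNT11 and WNT5A also had it between MET_P and MET_noP, whose libraries enter both comparisons. WNT11 differed by 2.17 percentage points, WNT5A by 3.39 and WNT3A, a ligand of the beta-catenin branch, by 4.92, each with a limma adjusted p of 0.999. Over both outcomes, 4 members had an unadjusted p under 0.05 for diet, against 8.76% of all genes. TGFB3 (6.01 percentage points, M difference 0.63, SE 0.19), LTBP3 (5.83) and FZD2 (9.33) were higher with RPM and NOTCH4 was lower (-2.90), with limma adjusted p of 0.505, 0.505, 0.556 and 0.545. LTBP3, which binds latent TGFB, had MET_P libraries between 59.4% and 69.8% and MET_noP libraries between 59.0% and 66.5%, against 51.4% to 66.5% (CON_P) and 53.5% to 60.2% (CON_noP).

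For the interaction of diet and outcome, 2 members had an unadjusted p under 0.05, against 5.4% of all genes. WNT10B was 5.47 percentage points lower with pregnancy under RPM, whereas under the control diet it was at 55.3% in CON_P and 52.6% in CON_noP (interaction -8.12 percentage points, M difference -0.47, SE 0.19, limma adjusted p = 0.893). FGFR3 differed by -2.05 percentage points, with group means of 91.7% (CON_P), 90.1% (CON_noP), 90.4% (MET_P) and 90.9% (MET_noP). Its largest differences were in 3 of its 37 sites (chr6:116778610-116778804), 13.7 for CON_P minus CON_noP and -7.53 for MET_P minus MET_noP. In its other stretches these differences were between -0.746 and 4.34 and between -1.69 and 1.13. For WNT5A, BMPR1B, FZD2 and the other genes above, the interaction did not reach an unadjusted p of 0.05, so a difference in 1 diet or outcome and not in the other is not shown to depend on it.

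Single sites gave the same picture as gene means. No member site had a limma adjusted p under 0.05 over the 199395 sites in any comparison. Unadjusted p-values under 0.05 were found at 46 of 1133 member sites between CON_P and CON_noP (3.93% of all sites), at 59 between MET_P and MET_noP (5.12%), at 50 between MET_P and CON_P (5.83%) and at 56 between MET_noP and CON_noP (5.13%). Of these, 28, 32, 31 and 41 were higher in the group named first.

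In 3 of the 4 pairwise comparisons, the lowest p among member sites with separate groups was found near complete methylation, where 1 group was at 100% in all of its libraries. At chr7:3158403 in WNT9A the 4 CON_P libraries were at 100% and the CON_noP libraries between 90.9% and 94.1% (M difference 3.15, SE 0.38, limma adjusted p = 0.181). At chr22:5181297 in TGFBR2 the MET_noP libraries were at 100% and the MET_P libraries between 95.0% and 96.7% (limma adjusted p = 0.148). At chr11:103941373 in NOTCH1, inside its fully methylated clusters, the MET_noP libraries were at 100% and the CON_noP libraries between 90.7% and 95.8% (limma adjusted p = 0.152).

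The same pattern, with differences of 3.69 to 5.68 percentage points, was seen in NOTCH4 (chr23:27175258) and WNT10A (chr2:106851431) in the first comparison, SMAD3 (chr10:14017323) in the second, and DVL2 (chr19:26942036) and WNT7A (chr22:58156447) in the last. Between MET_P and CON_P, where no such site led, chr11:103945280 in NOTCH1 was at 93.5% ± 1.53 and 98.9% ± 1.33. Depth at these sites is unknown, so it cannot be said how many reads separate 95% from 100%. Larger differences were found at intermediate sites, with weaker tests. At chr7:7919180 in NOTCH3 the MET_P libraries were at 84.6%, 86.7%, 88.9% and 92.3% and the CON_P libraries at 60.0%, 69.2%, 72.7% and 80% (limma adjusted p = 0.827). At chr29:43717218 in LTBP3, chosen after its values were seen, MET_P was at 60.9% ± 8.17 and MET_noP at 34.0% ± 7.26 (limma adjusted p = 0.89).

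Several members varied widely between libraries of the same group. The largest SDs between libraries, pooled within the 4 groups, were those of BMPR1B (10.1 percentage points), FZD2 (9.15) and TGFB2 (8.71). Over the 16 libraries, BMPR1B ranged from 21.7% to 57.9% and TGFB2 from 33.3% to 70.7%. Among clusters, the largest SDs were those of BMP6 (chr23:47582815-47582866, SD 13.5), SMAD6 (chr10:13566477-13566518, SD 13.5, and chr10:13620203-13620307, SD 12.1) and NOTCH1 (chr11:103963539-103963586, SD 10.8). The BMP6 cluster was at 58.6% in the CON_P library S14 and 53.3% in the MET_noP library S25, and between 8.86% and 37.5% in all others. The same 2 libraries were highest in the 16-site SMAD6 cluster (65.1% and 53.5%, others 18.1% to 46.6%) and in the NOTCH1 cluster (31.7% and 38.9%).

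Correlations over the 16 libraries were computed for 224 pairs, of the most variable members with each other and with marker genes, with permutation p-values adjusted over all Pearson and Spearman tests. Of the 44 pairs of members, 5 had an adjusted p under 0.05. The BMP6 and SMAD6 clusters varied together (r = 0.82, permutation p adjusted 0.0123, rho = 0.62, adjusted 0.0962), but r was 0.54 without the 2 libraries farthest from the median, so that the relation rests largely on S14 and S25. The SMAD6 cluster and FZD2 varied in opposite directions (r = -0.76, adjusted permutation p = 0.0224, rho = -0.77, adjusted 0.0284), and r was -0.71 without the 2 farthest libraries and -0.75 after group means were removed.

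Several of these members varied with single genes of the marker lists. By Pearson correlation, an adjusted permutation p under 0.05 was found for 6 of 30 pairs with epithelial genes, all with MUC1, for 6 of 70 with leukocyte genes (4 with ITGB2 and 2 with SPI1, of mixed sign), for 2 of 30 with endothelial genes (both VWF) and for 1 of 50 with stromal genes (COL1A1). By Spearman correlation, TGFB2 also passed with the stromal gene PDGFRB (rho = 0.80, adjusted permutation p = 0.0206). The SMAD6 cluster followed MUC1, a mucin of epithelial cells (r = 0.80, adjusted permutation p = 0.0123, rho = 0.69, adjusted 0.0499), as did BMPR1B (r = 0.81, adjusted permutation p = 0.0123, rho = 0.76, adjusted 0.0327). Without the 2 libraries farthest from the median of MUC1, r was 0.79 and 0.74. For the other epithelial genes, r was 0.39 with KRT19 and 0.07 with CDH1 for SMAD6, and 0.26 and -0.43 for BMPR1B. FZD2 followed SPI1, a transcription factor of myeloid and B cells (r = 0.83, adjusted permutation p = 0.0123, rho = 0.91, adjusted 0.00448, r = 0.81 without the 2 farthest libraries). The leukocyte genes LSP1, CD79A and CD79B also tended to be higher where FZD2 was higher, without an adjusted Pearson p under 0.05. The remaining leukocyte genes ran the opposite way with FZD2, with r of -0.71 for ITGB2 (adjusted permutation p = 0.0432), -0.67 for LCP1 and -0.19 for PTPRC. Within groups, after group means were removed, the correlations of SMAD6 and BMPR1B with MUC1 and of FZD2 with SPI1 were 0.79, 0.78 and 0.77.

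Group means differed among the markers of a list. In the order CON_P, CON_noP, MET_P and MET_noP, MUC1 was at 37.3%, 25.5%, 25.2% and 33.3%, beside 49.3%, 34.8%, 34.1% and 38.2% for BMPR1B, while CDH1 was at 6.12%, 7.25%, 7.75% and 7.44% and so lowest where BMPR1B was highest. SPI1 was at 62.8%, 64.7%, 72.0% and 65.8%, beside 43.6%, 43.3%, 56.4% and 49.2% for FZD2, while ITGB2 was at 39.4%, 37.1%, 34.9% and 40.8% and so lowest where FZD2 was highest. The mean over the 3 epithelial genes ranged, in the same order, from 19.4% to 30.9%, 18.7% to 27%, 18.8% to 25.6% and 16.3% to 32.8%. The mean over 7 of 11 leukocyte genes ranged from 54.4% to 64.6%, 56.6% to 60.9%, 57.5% to 61.9% and 53.1% to 57.8%, so MET_P and MET_noP overlapped only narrowly. Of these 7 genes, 6 were higher and 1 lower in MET_P than MET_noP (median 6.22 percentage points), none at an unadjusted limma p under 0.05. All 5 stromal genes were lower in CON_P than CON_noP (median -1.74), but only 2 of 5 in MET_P than MET_noP. All 3 endothelial genes were lower in MET_P than MET_noP (median -1.09), but only 1 of 3 in CON_P than CON_noP. The part of the cell mixture in the differences of BMPR1B, FZD2 and the other members was not tested.

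**Figure D5:**
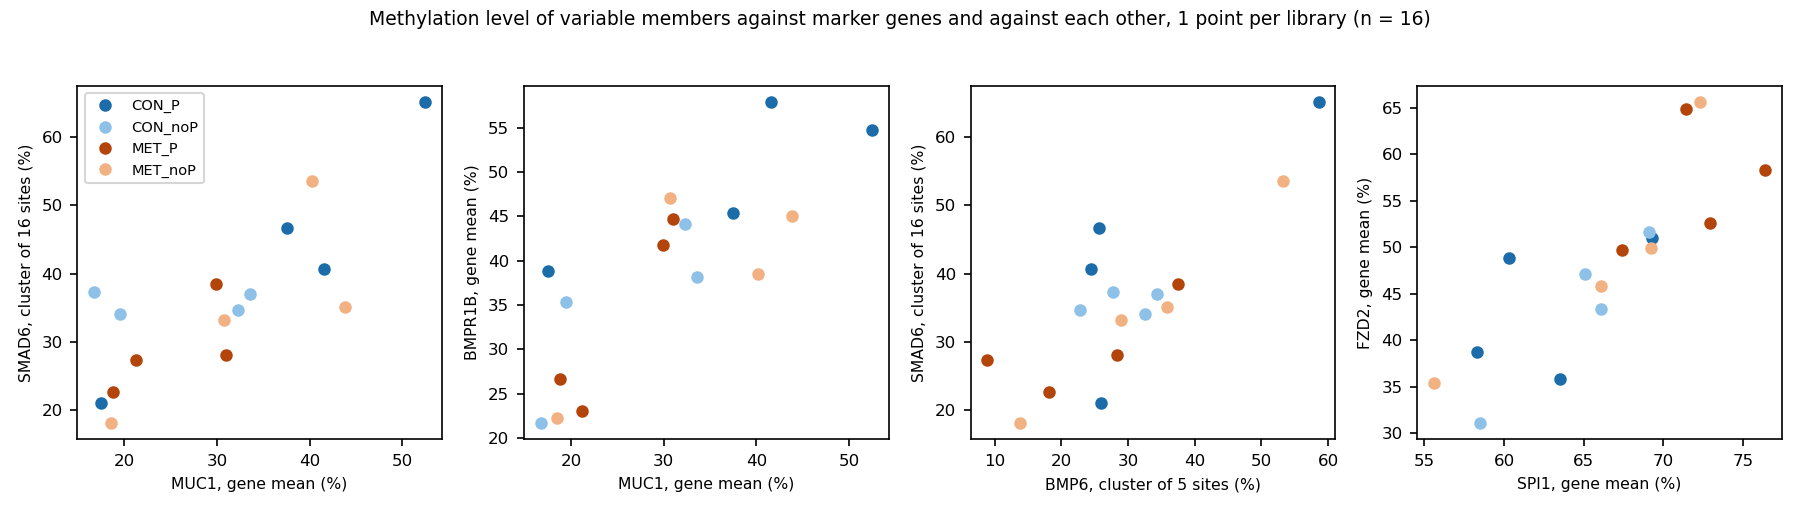
Methylation levels (%) of variable members (y axes) against MUC1, the BMP6 cluster and SPI1 (x axes), 1 point per library, coloured by group (n = 16). Libraries of all 4 groups run from low to high together in the MUC1 and SPI1 panels, and 1 CON_P and 1 MET_noP library lie apart at the upper right of the BMP6 panel.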

How the data were processed

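RRBS libraries of endometrial cytobrush cells (4 per group) were analysed. The authors used Trim Galore for trimming, Bismark for alignment to ARS-UCD1.2, SAMtools for alignment files and SeqMonk to compute percent methylation at positions with at least 10 counts. The deposited values are these percentages, not normalized between libraries, with a gene symbol for each position and without counts. Columns were assigned to groups by the group name in the header.

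Gene values were means over sites (at least 2). M values, log2((percent + 1)/(100 - percent + 1)), were fitted with limma 3.58.1 in R 4.3.3 (empirical Bayes without trend) on the 8 libraries compared, or on all 16 for outcome, diet and interaction, and adjusted by Benjamini-Hochberg over all genes or sites at 0.05. The fit was tested on simulated data. Single genes also had exact permutation tests, and correlations 100000 permutations (NumPy 2.4.6). Members, lists and the rule for named genes were chosen with earlier results of these data known. Named were the members with the 3 highest and lowest means, most sites, largest spread, or lowest p or separate groups in a comparison, BMP6 and BMP2K, and the 3 separate sites of lowest p; other members were named after their values were seen. Alternatives were untransformed percentages, an offset of 0.1, trend, centred libraries, genes with at least 5 sites, site medians, all libraries in 1 model, sites of 10% to 90%, merged strands, a block and each library left out. No sequences are shown, as no genome of this build was used here.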

Additional observations from a re-analysis of the deposited data

Results flagged for a closer look

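In 28 member genes and 4 groups, 112 groups of 4 libraries were looked at for 1 library far from the other 3, with Dixon's ratio above its critical value at the 95% level. There were 4 such libraries, and chance marks about 1 in 20 groups, or 5.6 of these. WNT10B was at 61.0% in the CON_P library S14, while the other CON_P libraries were between 52.9% and 53.6%. WNT16 was at 11.6% in the CON_P library S30 and between 6.14% and 7.04% in the others. TGFB2, over 3 sites, was at 70.7% in the MET_P library S19 and between 58.0% and 60.0% in the others. NOTCH4 was at 68.1% in the MET_P library S27 and between 70.1% and 70.5% in the others.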

How the results depend on the processing

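No member gene had a limma adjusted p under 0.05 under any alternative, and the lowest was 0.279 (WNT16 in MET_P minus CON_P without library S30). Of 24 pairs of a member gene and a comparison, 22 kept their direction throughout. TGFB3 in MET_noP minus CON_noP (-0.25) and FGFR3 in the interaction (0.5) had the opposite sign when a gene was the median of its sites, and the cause was not tested. LTBP3 had an unadjusted limma p under 0.05 for diet in 24 of 24 alternatives, 16 of which left out a library. BMP2K had it in 8 of 17, TGFB3 in MET_noP minus CON_noP in 7 of 17, and FGFR3 in the interaction in 7 of 24. NOTCH3 (MET_P minus MET_noP) and WNT10A (MET_noP minus CON_noP), named for separate groups, had it in 6 and 2 of 17.

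Over all genes, 0 were called as reported, and calls under alternatives were 2, 3 and 1 by the median of sites (MET_P minus MET_noP, MET_P minus CON_P, MET_noP minus CON_noP), 1 with trend (MET_P minus CON_P) and 2 with an offset of 0.1 (MET_noP minus CON_noP). With libraries left out, they ranged from 0 to 4 in MET_P minus CON_P (4 without S14) and from 0 to 1 in MET_noP minus CON_noP (S12), diet (S12, S17 or S30) and interaction (S28). The number of members at an unadjusted p under 0.05 then ranged from 0 to 5, 3 to 7, 0 to 9 and 0 to 2 in the pairwise comparisons. Over all sites, an offset of 0.1 percentage points gave 227, 282, 277 and 225 calls in the 4 pairwise comparisons (CON_P minus CON_noP first) against 0, and 25 against 2 for the interaction. Of these, 4, 3, 0 and 3 were member sites, each with 1 group at 100% in all libraries. Sites of 10% to 90% gave 1 (MET_P minus CON_P), 0 (outcome) and 1 (interaction), and untransformed percentages gave 0 for outcome and interaction, against 1 and 2. With libraries left out, sites called ranged from 1 to 5 for outcome (5 without S18, and without S28 they included the SMAD3 site chr10:14017323, limma adjusted p = 0.014), 0 to 2 for diet (2 without S25) and 0 to 6 for the interaction (6 without S28).

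No paired analysis was possible because the columns of the table carry library numbers and no replicate numbers of the labels. Runs of 4 consecutive library numbers, each with 1 library of every group, as a block, and sites with both strands merged were added after the data were seen. The block called 0 genes in every comparison, and deviations within runs had a median r of 0.0093. Depth per site is unknown, so counting error could not be separated from the spread between libraries.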

Other observations

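Other genes of the same pathways, from a list of 126 inhibitors, co-receptors, further ligands and intracellular components, were measured at 2 or more sites for 79. None had a limma adjusted p under 0.05 in any comparison. At an unadjusted p under 0.05, 0 were found between CON_P and CON_noP (3.5% of all genes), 1 higher and 2 lower in MET_P than MET_noP (5.59% of all genes), 5 higher and 1 lower in MET_P than CON_P (7.26%), and 3 higher and 0 lower in MET_noP than CON_noP (6.39%). Their median levels were 54.2% for 27 inhibitors and modulators, 65.8% for 9 co-receptors and other receptors, 45.6% for 15 other ligands and 51.9% for 28 intracellular components.

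Between MET_P and CON_P, SPRED3, an inhibitor of the RAS pathway below FGF receptors, was at 65.9% ± 9.80 and 47.8% ± 11 over 55 sites (SD, 4 libraries each, limma adjusted p = 0.68). TLE1, a co-repressor recruited in WNT and NOTCH signalling, was at 42.5% ± 4.28 in MET_P and 58.0% ± 9.12 in CON_P (limma adjusted p = 0.666), while its relative TLE3 was at 71.4% ± 4.59 and 62.1% ± 7.07. MAML2, a co-activator of NOTCH, was at 20.6% ± 3.99 in MET_P and 35.9% ± 9.78 in MET_noP (limma adjusted p = 0.81), and at 38.7% ± 17.2 and 22.7% ± 8.31 in CON_P and CON_noP (interaction, limma adjusted p = 0.893). Between MET_noP and CON_noP, ETV4, a transcription factor induced by FGF signalling, was at 14.3% ± 0.94 and 8.98% ± 0.905 over 2 sites (limma adjusted p = 0.53). Over both outcomes, 11 of the 79 genes were higher with RPM and 1 lower at an unadjusted p under 0.05, beside 640 higher and 124 lower of all 8719 genes (8.76% together), and GREM1, a secreted BMP antagonist, had the lowest p among them (5.78 percentage points, limma adjusted p = 0.505).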
